A study of Mus musculus with 14 samples.

Results

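High-fat feeding was compared with normal feeding in epididymal adipocytes, the fat-storing cells of the visceral pad that lies along the epididymis of male mice. The animals were male C57BL/6 mice that ate either regular chow (normal diet) or a high-fat diet for 16 weeks, starting when they were weaned at 3 weeks of age, and no other treatment or genotype is given. Pads from 3 to 5 mice were pooled for each library, digested with collagenase for 20 min, and the floating layer was taken for RNA sequencing, so every value below is a mean over several mice and over all cells that floated. Of the 14 libraries of the series, 6 were compared here, with replicates 0, 1 and 2 on each diet. A further 6 libraries, of inguinal (subcutaneous) adipocytes from mice on the same pair of diets with 3 libraries each, entered the fit and the comparison between depots. The account covers the 13532 genes, of 38553 listed, that reached at least 0.5 FPKM in at least 3 of the 6 epididymal libraries. FPKM (fragments per kilobase of transcript and per unit of mapped library) is a level corrected for gene length and for the size of the library. The libraries are called H0, H1 and H2 (high-fat diet) and N0, N1 and N2 (normal diet) after their replicate numbers, and values are given in that order.

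White adipocytes store triglyceride in a single large droplet and release it as fatty acids when energy is short, and they secrete hormones such as leptin. When the diet supplies more fat than the pad can hold, adipocytes enlarge, and the epididymal pad is known for the crowns of macrophages that form around dying fat cells and take up their lipid. Those macrophages degrade their cargo in lysosomes, acidic compartments filled with hydrolases. The pad is also threaded with capillaries, whose endothelial cells deliver lipid to the adipocytes, and with fibroblast-like precursors. RNA of a pooled floating layer can hold transcripts of all of these cells. In such bulk samples fewer cells of a type and less RNA per cell cannot be told apart.

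The labelled cell type was checked first: all 15 adipocyte markers checked were at or above 0.5 FPKM in each of the 6 libraries. That floor shows presence only. Their sums were 17831, 20933 and 27211 FPKM on the high-fat diet and 23991, 40124 and 40380 on the normal diet. Of the normal-diet libraries only N0 lay within the high-fat range. Markers of several other cell types differed between the diets. The 12 endothelial markers summed to 58.6, 114.0 and 102.3 FPKM on the high-fat diet and to 616.6, 674.4 and 627.0 on the normal diet, with none listed at 0. The 12 markers of lipid-associated macrophages summed to 7346, 7770 and 7496 FPKM against 1950, 2780 and 2864, also with none at 0, and the 18 general macrophage markers to 2315.5, 2283.9 and 1291.0 against 607.4, 1066.6 and 515.2. Erythroid and platelet markers, which mark blood, summed to 315.6 to 475.2 FPKM against 1147 to 3523. Fibroblast and preadipocyte markers (13 genes) were lower on the high-fat diet, between 443.5 and 613.5 FPKM against 911.9 to 1567, without overlap. For pericytes, the cells that wrap capillaries, the sums overlapped (111.3 to 162.4 against 159.1 to 229.2 FPKM). The library N2 also held 131.5 FPKM of epididymis and sperm markers, with 8 of the 12 markers under 0.5 FPKM; in the other 5 libraries that list summed to at most 1.74 FPKM, and none of its genes passed the filter on low values. N0 had a lower total of nuclear protein-coding FPKM, 286898 against 391837 to 431070 in the other 5 libraries. Libraries of one diet ranked the genes alike (Spearman's rho across genes 0.948 to 0.980), and libraries of different diets less so (0.857 to 0.896).

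**Figure D1:**
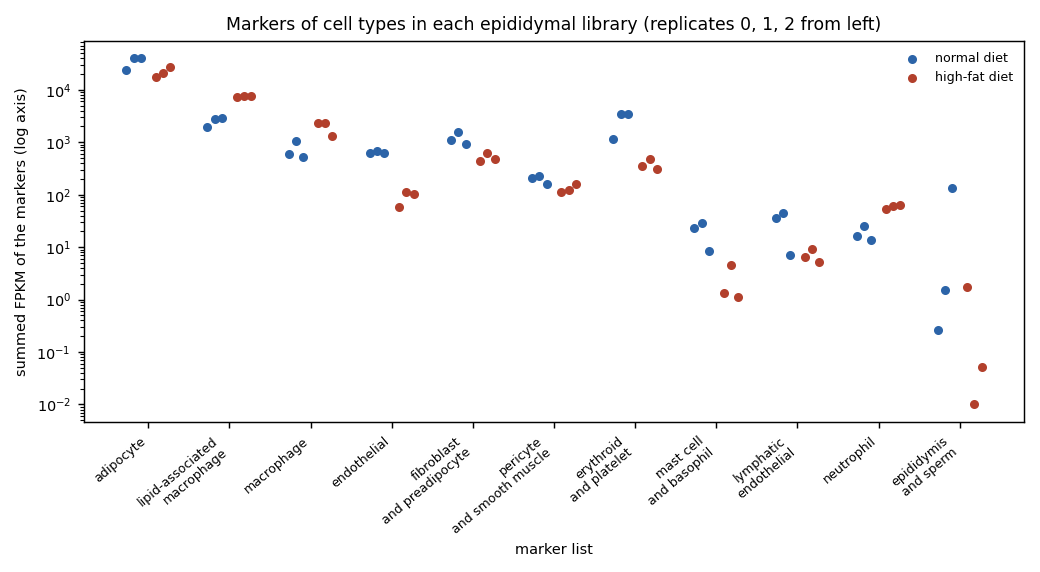
Summed FPKM of 11 marker lists (y axis, log scale) in each epididymal library, blue for the normal diet and red for the high-fat diet, replicates 0, 1 and 2 from left to right; the epididymis and sperm sum of H1 is 0 and is drawn at the bottom of the axis, at 0.01. Endothelial sums lie between 58.6 and 114.0 FPKM on the high-fat diet and at 616.6 or above on the normal diet, while the adipocyte sums of the diets overlap only through N0.

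Across the transcriptome, 3065 of the 13532 genes (22.7%) differed between the diets at an adjusted p under 0.05 (limma on log2(FPKM + 0.5), Benjamini-Hochberg over all 13532 genes, n = 3 libraries per diet). On the high-fat diet 1902 genes rose (14.1%) and 1163 fell (8.59%), and 4647 genes had an unadjusted p under 0.05. Called genes changed by a median of 2.35-fold upwards and 2.67-fold downwards, on the log2(FPKM + 0.5) scale, which understates the change of genes with low values. Among the genes that rose, 81 did so by 8-fold or more and 635 by less than 2-fold; among those that fell, the numbers were 49 and 284. A large difference was not always a call, since 210 genes stood at least 2-fold higher and 231 at least 2-fold lower without passing the test. The high-fat and the normal-diet values did not overlap for 6043 genes (44.7%), among them 1901 of the genes that rose and 1159 of those that fell.

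These counts depended on scaling and on single libraries. The median gene stood 0.10 higher on the high-fat diet on the log2 scale as deposited, 0.04 higher after TMM scaling (trimmed mean of M-values), 0.02 lower after quantile normalization and 0.08 lower when every library was set to the same sum of nuclear protein-coding FPKM. The split of calls was 1902 higher and 1163 lower (62.1% higher) as deposited, and 1641 and 1518 (51.9% higher) after quantile normalization. It turned to 1461 higher and 1683 lower (46.5% higher) with equal nuclear coding sums. Without H0 the counts were 1241 and 741, and without H1 they were 1266 and 821. Without N0, the library that stood low in total, 1304 and 1071 genes were called, and without N2, which held epididymis and sperm markers, 1563 and 886. In all, 1738 calls (56.7%) were made again whichever 1 of the 6 libraries was left out.

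Genes that rose and genes that fell sat at different levels. Among genes with a mean of 100 to 300 FPKM, 123 of 470 rose and 19 fell; among those of 1 to 3 FPKM, 218 of 2273 rose and 279 fell. The genes that rose made up 25.3% to 28.6% of all nuclear protein-coding FPKM on the high-fat diet and 11.02% to 12.4% on the normal diet. The genes that fell made up 2.44% to 2.97% and 10.77% to 10.97%. Of the 100 genes with the highest level on the normal diet, 11 rose and 12 fell, and 73 of them were also among the 100 highest on the high-fat diet. Normal-diet libraries varied more among themselves: the log2 SD over 3 libraries had a median of 0.314 there and of 0.195 on the high-fat diet, and it was the larger one for 72.2% of genes.

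**Figure D2:**
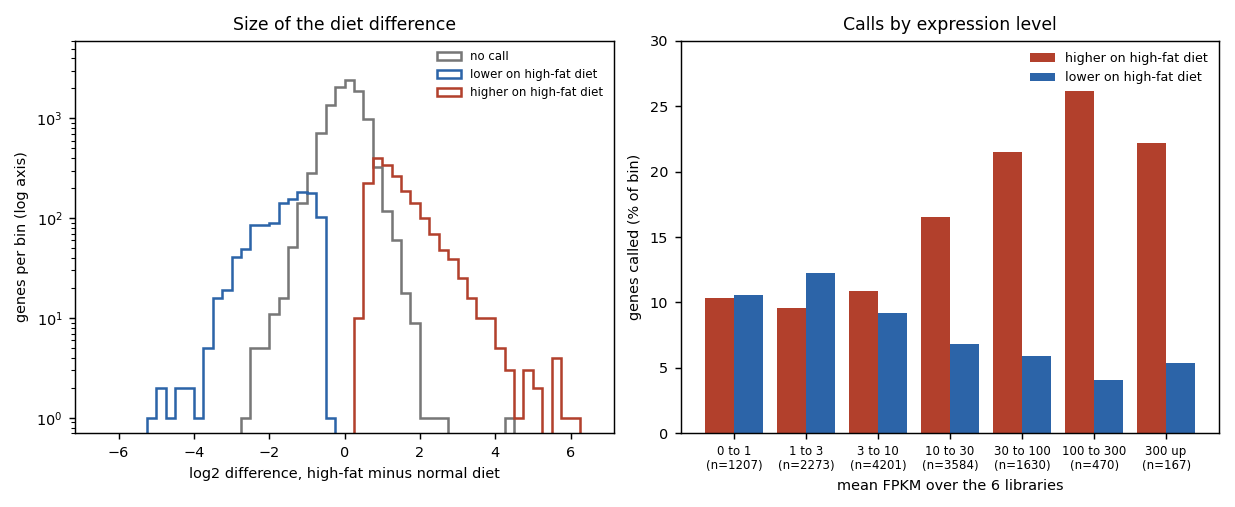
Left, number of genes (log axis) per 0.25-wide bin of the log2 difference between the diets, drawn separately for genes without a call, lower and higher genes. Right, percentage of genes called in bins of mean FPKM over the 6 libraries: the share higher on the high-fat diet exceeds the share lower in each bin from 3 FPKM upwards, and the order is the opposite below 3 FPKM.

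The genes that gained most FPKM were of several kinds. Ctsd, which encodes the lysosomal protease cathepsin D, measured 2199.6, 2061 and 2018 FPKM on the high-fat diet and 384, 601 and 443 on the normal diet (log2 difference 2.16 ± 0.29 (SE), adjusted p = 0.00021). Psap, the precursor of the saposins that help lysosomal enzymes reach sphingolipids, measured 2188, 1988 and 1809.6 FPKM on the high-fat diet and 415, 625 and 536 on the normal diet. The adipocyte hormone gene Lep measured 1415, 1422 and 1676 FPKM on the high-fat diet and 191, 210.4 and 213 on the normal diet, a 7.34-fold ratio of means. In each of these 3 genes the lowest high-fat library stood above the highest normal-diet one, as it did for 1901 of the 1902 genes that rose. Dgat2, whose enzyme makes the last step of triglyceride synthesis, rose 3.23-fold (1763, 1455 and 1857 against 484, 499 and 587 FPKM), and Sparc, a matrix glycoprotein of adipose tissue, rose 2.5-fold (2722, 2507 and 3366 against 930.5, 1406 and 1095 FPKM). Lgals3, which encodes the sugar-binding protein galectin-3 and is abundant in macrophages, rose 14.5-fold (1272, 1423 and 1096 against 62.6, 96.5 and 103 FPKM; adjusted p = 1.8e-05). Anxa2, a membrane-binding annexin, rose 3.51-fold (1110.4, 1456 and 1399 against 267, 458 and 405 FPKM). Ftl1, the ferritin light chain, gained more FPKM than Anxa2 but lost its call without any of 4 libraries (N1, H0, H1 or N0, with adjusted p values of 0.0594, 0.0817, 0.0864 and 0.093), without a filter on low values (0.058), after quantile normalization (0.0624) and with equal nuclear coding sums (0.0551), and its reads may be shared with pseudogene copies.

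The genes that lost most FPKM included secreted factors and enzymes. Cfd, the complement factor adipsin, measured 1369.5, 832 and 2054 FPKM on the high-fat diet and 6593, 8967 and 10779 on the normal diet (6.19-fold lower in mean, adjusted p = 0.0013). Cyp2e1, a cytochrome P450 that oxidizes small molecules such as ethanol, measured 130.1, 129.8 and 338 FPKM on the high-fat diet and 1726, 2633 and 2603 on the normal diet, and Gpx3, a secreted glutathione peroxidase, 36.1, 43.5 and 77.2 FPKM on the high-fat diet and 419.7, 508 and 786 on the normal diet. H2 was the highest of its group for all 3 genes. The groups did not overlap, as for 1159 of the 1163 genes that fell. The gluconeogenic and glyceroneogenic enzyme gene Pck1 fell as well (218, 194 and 427 against 569, 1179 and 998 FPKM, adjusted p = 0.014), but its call was lost without H0, H1 or N1 (adjusted p = 0.0583, 0.0635 and 0.0556). Retn, the gene of the hormone resistin, had the weakest call of these (373, 389.9 and 684 against 726, 1033 and 1299 FPKM, adjusted p = 0.046) and lost it without H0, H1, N1 or N2 (adjusted p = 0.162, 0.149, 0.107 and 0.15) and without a filter on low values (0.1).

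Just below the top of the list of relative changes, the genes that rose most included several secreted or surface proteins. Kcnj14, which encodes an inwardly rectifying potassium channel, measured 22.7, 19.3 and 18.8 FPKM on the high-fat diet and 0.201, 0.881 and 0.4 on the normal diet (log2 difference 4.44 ± 0.30, adjusted p = 2.7e-06). F7, the gene of coagulation factor VII, measured 23.3, 23.5 and 22.6 FPKM on the high-fat diet and 0.741, 0.722 and 0.94 on the normal diet. Gdf15, a stress-induced circulating factor, measured 39.7, 22.5 and 21.8 FPKM on the high-fat diet and 1.08, 0.874 and 0.636 on the normal diet, with H0 well above the other high-fat libraries. Mrc2, an endocytic collagen receptor, rose 23.7-fold, Slc37a2, a sugar-phosphate exchanger found in macrophages, 22.03-fold, and Adam8, a membrane metalloprotease, 17.6-fold. On the other side stood Gdf10, a TGF-beta family ligand also called BMP3b (0.525, 0.619 and 0.664 against 15.6, 20.3 and 7.78 FPKM), Id1, an inhibitor of basic helix-loop-helix factors that responds to BMP signals (2.79, 6.61 and 5.6 against 49.5, 73.1 and 51.7 FPKM), and Mycl, a MYC family factor (0.777, 0.341 and 1.65 against 13.5, 17.8 and 11.4 FPKM). Cyyr1, a small membrane protein gene, and Adgrl4, an adhesion receptor of endothelial cells, fell 14.3-fold and 11.4-fold. In every one of these 11 genes the groups did not overlap, which the choice of the genes required.

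**Figure D3:**
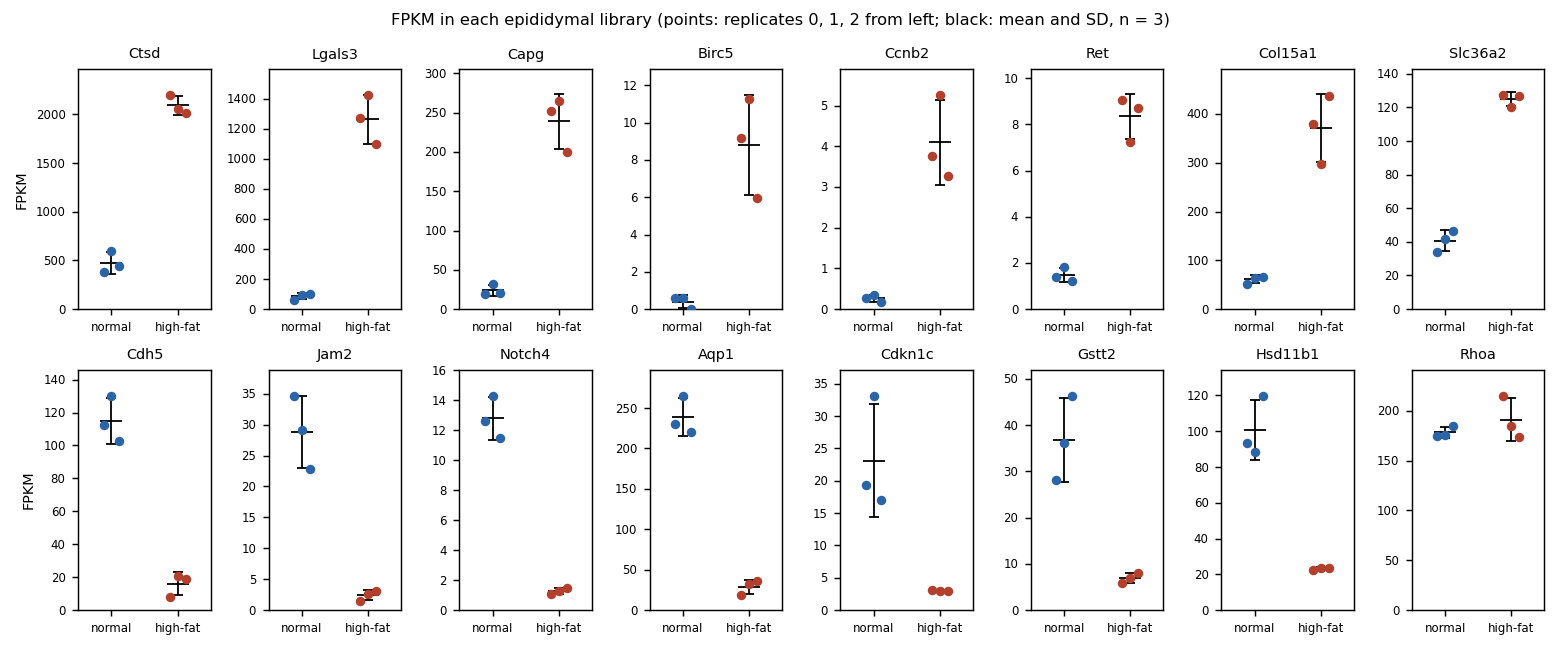
FPKM (y axis, from 0, one scale per gene) of 16 genes in each epididymal library, blue for the normal diet and red for the high-fat diet, with the mean and SD of 3 libraries in black. For 15 genes the groups do not overlap; Rhoa, at 174 to 215 FPKM on the high-fat diet and 175 to 185 on the normal diet, is shown as a gene whose difference was held within a narrow interval.

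Genes of cell division rose together. Mature adipocytes are not known to divide, whereas macrophages and precursor cells of adipose tissue can. Of 54 genes of the cell cycle and DNA replication that were tested, 36 rose and none fell, with a median log2 difference of 1.38, against 14.1% of all genes rising and a median of 0.10. Of the 54, 8 were detected on the high-fat diet only (at 0.5 FPKM or more in its 3 libraries and in none of the normal diet), so they entered the table through the diet where they are high; among the other 46, 28 rose, with a median of 1.37. Birc5, which encodes survivin of the chromosomal passenger complex, measured 9.17, 11.3 and 5.96 FPKM on the high-fat diet and 0.602, 0.618 and 0 on the normal diet (adjusted p = 0.0013). Ccnb2, a mitotic cyclin, measured 3.76, 5.26 and 3.27 FPKM on the high-fat diet and 0.281, 0.341 and 0.172 on the normal diet, and Ube2c, the enzyme that marks mitotic cyclins for degradation, 16.6, 13.4 and 11.7 FPKM on the high-fat diet and 1.13, 3.16 and 0.83 on the normal diet. For Birc5 and Ube2c the highest normal-diet library lay below the lowest high-fat one, as for 1901 of the 1902 genes that rose. The normal-diet levels of Birc5 were near or below 0.6 FPKM. Ccnb2 is 1 of the 8 genes detected on the high-fat diet only, so its lack of overlap is part of that definition. The count of 36 dropped to 23 without H1, and 1 member fell under quantile normalization and equal nuclear coding sums. In the inguinal libraries none of the 54 rose and 2 fell.

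Inhibitors of the cell cycle split. Cdkn1a, which encodes p21 and is the best known target of p53, rose (62.2, 58.98 and 57.01 against 7.93, 25.9 and 5.77 FPKM; adjusted p = 0.006), and so did the stress gene Gadd45b (38.4, 25.2 and 18.5 against 2.17, 3.28 and 4.82 FPKM). The related inhibitors Cdkn1c (p57) and Cdkn1b (p27) fell 7.67-fold and 2.56-fold, with Cdkn1c at 3.1, 2.92 and 3.02 FPKM on the high-fat diet and 19.3, 33.1 and 16.97 on the normal diet. Among 40 targets of p53, senescence genes and inhibitors of cyclin-dependent kinases, 13 rose and 4 fell (32.5% and 10%, against 14.1% and 8.59% of all genes), with a median of 0.68. Macrophage marker sums, given above, were higher in the same libraries as the division genes, and their part in these results was not tested.

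Promoters of mitotic genes are known to carry repeated CCAAT boxes, bound by the factor NF-Y. The motif CCAAT, on either strand, was present in the RefSeq promoter window (250 bases before to 50 after the start, mouse assembly GRCm38.p6) of 73.3% of the division genes with a window, of 38.8% of all tested genes with one and of 37.9% of all windows. By call, it was in the windows of 40.3% of genes that rose, 35.3% of those that fell and 38.9% of the rest. The stretches around the boxes of Ccnb2 and Ube2c, 2 of the division genes named above, are shown for their repeated boxes, 5' to 3' on the gene's strand, with the boxes in capitals (ATTGG is the box on the other strand, and CCAATTGG holds an overlapping pair).
Ccnb2 (chr9:70421555-70421681, minus strand): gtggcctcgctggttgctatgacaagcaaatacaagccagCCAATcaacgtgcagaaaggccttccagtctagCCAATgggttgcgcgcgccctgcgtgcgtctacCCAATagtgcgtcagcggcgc
Ube2c (chr2:164769679-164769916, plus strand): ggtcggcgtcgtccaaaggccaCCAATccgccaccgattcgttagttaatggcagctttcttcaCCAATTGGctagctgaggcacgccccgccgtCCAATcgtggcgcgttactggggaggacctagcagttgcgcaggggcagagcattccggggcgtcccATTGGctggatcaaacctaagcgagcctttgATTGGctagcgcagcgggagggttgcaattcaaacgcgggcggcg
The Ccnb2 stretch holds 3 matches between 21 and 87 bases before the start and the Ube2c stretch 6 between 57 and 228. A match describes the letters only and is not a measured site of binding.

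Lysosomal genes formed another group that rose. Of 60 lysosomal hydrolases and membrane proteins tested, 35 rose (58.3%, against 14.1% of all genes) and none fell, with a median log2 difference of 0.94. After quantile normalization or with equal nuclear coding sums 1 fell, and 2 fell when the replicate number was fitted as a block. Cd68, a lysosomal membrane glycoprotein used as a macrophage marker, measured 367, 347 and 246 FPKM on the high-fat diet and 30.3, 42.7 and 30.8 on the normal diet. Ctsk and Ctss, both cysteine cathepsins, rose 8.82-fold and 8.42-fold, with Ctsk at 80.2, 76.3 and 44.1 against 6.75, 10.5 and 5.5 FPKM. H2 was the lowest of its group for all 3 genes. It also had the lowest macrophage sum of that group, a sum that includes Cd68. The part of macrophages in the lysosomal results was not tested. The members that did not pass the test include Laptm4a, at 244, 181 and 222 FPKM on the high-fat diet and 222, 202 and 189.5 on the normal diet.

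The proton pump that acidifies these compartments changed in the same direction. Among the 20 V-ATPase genes tested 13 rose (65%, against 14.1% of all genes) and none fell (median 0.81), and 7 rose after quantile normalization. Atp6v0a1, a membrane-sector subunit, measured 151, 155 and 150.02 FPKM on the high-fat diet and 24.2, 34.01 and 41.8 on the normal diet, and Atp6v1b2, a subunit of the catalytic sector, 170.5, 148 and 128 FPKM on the high-fat diet and 32.99, 47.4 and 43.1 on the normal diet. The groups did not overlap for either subunit, as for 1901 of the 1902 genes that rose. Autophagy genes, which feed the lysosome, showed fewer calls: 5 of 39 rose, or 12.8%, near the 14.1% of all genes, and none fell, 3 rose without H0, H2, N0 or N2, and 1 or 2 fell after rescaling (TMM, quantile or equal nuclear coding sums) and 1 without N0; 8 rose after TMM scaling. In sphingolipid metabolism 13 of 35 rose and 3 fell (37.1% and 8.57%, against 14.1% and 8.59% of all genes). Among those that rose was Acer3, an alkaline ceramidase (10.2, 7.3 and 7.39 against 2.28, 1.87 and 1.82 FPKM, adjusted p = 0.00025). The number that rose was 8 without H1 or N2 and with equal nuclear coding sums, and at most 1 fell without any library but N2.

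Many lysosomal genes are known to carry the CLEAR element, a palindromic E-box read by TFEB and related factors. The core CACGTG was found in the windows of 12 of the 48 lysosomal genes that had one (25%), of 10.3% of all tested genes and of 7.24% of all windows. The longer TCACGTGA was found in 8.33% of them, or 4 genes, in 1.97% of all tested genes and in 1.01% of all windows. By call, it was in the windows of 2.22% of genes that rose, 0.978% of those that fell and 2.03% of the rest. Tested genes with it had a median log2 difference of 0.11, near the 0.10 of all genes. The examples below come from the lysosomal and proton pump genes, with TCACGTGA in capitals; Gla (alpha-galactosidase, 14.8, 13.96 and 10.8 against 2.15, 1.63 and 3.34 FPKM) and Atp6v1a (catalytic subunit of the pump, 85.4, 82.3 and 63.05 against 23.5, 28.2 and 34.5 FPKM) were chosen for their sequence after their values were seen.
Ctsd (chr7:142387879-142387966, minus strand): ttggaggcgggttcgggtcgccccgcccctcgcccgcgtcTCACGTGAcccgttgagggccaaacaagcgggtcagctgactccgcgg
Gla (chrX:134601153-134601255, minus strand): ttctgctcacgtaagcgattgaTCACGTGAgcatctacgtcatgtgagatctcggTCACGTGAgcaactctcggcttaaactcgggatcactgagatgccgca
Atp6v1a (chr16:44139344-44139431, minus strand): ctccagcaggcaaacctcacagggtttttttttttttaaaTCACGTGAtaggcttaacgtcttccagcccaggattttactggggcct
The Gla stretch holds the element at 195 and 228 bases before the start, Ctsd at 99 and Atp6v1a at 132.

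Cytoskeletal genes rose broadly. Of 55 genes of actin, tubulin and their partners, 27 rose and 3 fell (median 0.79; 5 fell with equal nuclear coding sums). Capg, an actin-capping protein of macrophages, measured 252, 265 and 199.8 FPKM on the high-fat diet and 18.9, 32.4 and 20.2 on the normal diet (log2 difference 3.33 ± 0.22, adjusted p = 2.5e-06), and Lcp1, the actin-bundling plastin of white blood cells, rose 7.26-fold. Among the genes that fell was Myl9, a myosin light chain of smooth muscle (3.56, 6.42 and 6.16 against 21.6, 30.3 and 18.7 FPKM). The small GTPase gene Rhoa, a regulator of the actin skeleton, measured 215, 184 and 174 FPKM on the high-fat diet and 175, 176 and 185 on the normal diet, and its groups overlapped.

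Receptors for uptake of debris moved in opposite directions. Of 36 phagocytosis and scavenger receptor genes, 18 rose and 9 fell, and 15 and 8 of the 32 left without those detected on one diet only did so. Clec12a, an inhibitory lectin receptor of myeloid cells, measured 37.6, 42.6 and 16.8 FPKM on the high-fat diet and 4.67, 4.09 and 4.03 on the normal diet, and Fcgr4, an activating receptor for antibodies, 7.22, 6.4 and 3.87 FPKM on the high-fat diet and 0.514, 0.978 and 0.109 on the normal diet. Those that fell included Cd209f, a member of the DC-SIGN lectin family (1, 1.09 and 0.908 against 16.1, 26.01 and 9.2 FPKM), Cd209a (0.684, 0.681 and 0.433 against 5.31, 6.64 and 3.73 FPKM) and Scarb1, the receptor for high-density lipoprotein (32.2, 38.6 and 35.3 against 72.4, 78.5 and 79.3 FPKM). Of 14 SLAM, SIGLEC and other paired immune receptors 10 rose and none fell (1 fell without N2), with a median of 1.68; 3 of the 14 were detected on the high-fat diet only and 1 on the normal diet only, and of the other 10 genes 7 rose, with a median of 1.76. Sirpa, which recognizes CD47 and restrains phagocytosis, rose 5.07-fold, and its relative Sirpb1c, whose sequence is close to those of its neighbours so that reads may be shared, measured 3.71, 6 and 4.77 against 0.507, 0.439 and 0 FPKM.

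Part of the NF-kB pathway, which relays inflammatory signals to the nucleus, rose. Of 35 members 11 rose (31.4%, against 14.1% of all genes) and none fell (1 fell with equal nuclear coding sums). Tnfaip3, the ubiquitin-editing inhibitor A20, measured 24.6, 25.3 and 15.6 FPKM on the high-fat diet and 4.33, 6.11 and 2.34 on the normal diet (adjusted p = 0.00016), and Tnip3, which encodes a partner of A20, 9.74, 8.11 and 4.79 FPKM on the high-fat diet and 1.27, 0.636 and 0.436 on the normal diet. Without H1 or N0, 5 members rose, and without H0, 7 did. Feedback phosphatases of the MAP kinase pathway were split: Dusp1 and Dusp5 rose (367.9, 276 and 233.9 against 107, 113 and 54.95 FPKM; 8.05, 6.2 and 5.07 against 0.527, 1.03 and 1.02 FPKM), whereas Spry1, a sprouty inhibitor of growth factor signalling, fell (2.19, 2.76 and 3.73 against 12.01, 17.6 and 10.8 FPKM). That list of 21 genes had 4 higher and 3 lower members, with 1 lower member left without H0, H1 or N1, and its median of 0.09 turned negative under quantile normalization and equal nuclear coding sums.

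Genes that join cells to each other fell. Of 26 members of tight, adherens and gap junctions, 16 fell and none rose, with a median log2 difference of -1.30, against 8.59% of all genes falling; 1 rose under TMM scaling, equal nuclear coding sums or the replicate block, or without N2. Cdh5, the cadherin of endothelial junctions, measured 8.12, 20.9 and 19.1 FPKM on the high-fat diet and 113, 130.1 and 103 on the normal diet (adjusted p = 4.2e-05). Jam2, a junctional adhesion molecule, measured 1.44, 2.67 and 3.04 FPKM on the high-fat diet and 34.6, 29.1 and 22.9 on the normal diet. H0 was the lowest library for both, and it was also the lowest for 51.0% of all genes that fell.

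Signals between vessel cells followed. In the Notch pathway, which sets arterial identity and tip cells in sprouting vessels, 9 of 21 genes fell (42.9%, against 8.59% of all genes) and 1 rose (median -0.57). After TMM scaling 2 rose, and none did without H0, H2, N0 or N2 or under the other scalings. The receptor Notch4 measured 1.09, 1.29 and 1.5 FPKM on the high-fat diet and 12.6, 14.3 and 11.5 on the normal diet (log2 difference -2.89 ± 0.19, adjusted p = 2.2e-06), and the ligands Dll4 and Jag2 fell 5.98-fold and 8.42-fold. Of 45 semaphorins, ephrins, netrins, slits and their receptors, 18 fell and 10 rose (6 without H0). Those that fell most were Robo4, an endothelial roundabout receptor (1.44, 4.41 and 3.77 against 26.8, 37.01 and 25.2 FPKM), and Sema6a (0.945, 1.49 and 1.55 against 14.3, 10.8 and 12.6 FPKM). Opposite in direction were Sema3c, secreted by adipocytes among other cells (36.1, 38.1 and 45.2 against 9.56, 13.1 and 5.91 FPKM), and the ephrin receptor Ephb2 (11.2, 9.52 and 14.2 against 1.61, 2.78 and 2.94 FPKM).

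Growth factor receptors and vasoactive genes showed the same lopsided pattern with exceptions. Of 25 receptor tyrosine kinases, 10 fell, among them the vascular receptors Flt1 (2.1, 3.72 and 4.33 against 31.5, 37.9 and 26.1 FPKM) and Tie1 (2.32, 4.36 and 3.99 against 24.99, 26.2 and 23.7 FPKM). The 2 that rose were Ddr1, a collagen receptor (52.8, 35.5 and 59.2 against 12.4, 12.8 and 17.98 FPKM), and Ret, the receptor of GDNF family ligands (9.08, 7.23 and 8.73 against 1.4, 1.81 and 1.23 FPKM). Natriuretic, renin-angiotensin and other vasoactive genes had 13 of 22 lower and 1 higher (median -1.17). Npr1, the receptor through which natriuretic peptides raise cyclic GMP and stimulate lipolysis, fell (2.29, 3.39 and 2.37 against 18.5, 22.4 and 18.7 FPKM; adjusted p = 2.4e-05), while Npr3, the receptor that clears those peptides, rose (290.1, 280.4 and 339 against 130.03, 106 and 122.5 FPKM; adjusted p = 0.00023). Ednrb, an endothelin receptor, and Ace, the angiotensin-converting enzyme, fell 9.79-fold and 6.35-fold.

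A set of 3 SOX factors of endothelium moved with these genes: Sox18 measured 3.68, 4.88 and 5.03 FPKM on the high-fat diet and 37.6, 56.6 and 50.4 on the normal diet, and Sox7 and Sox17 fell 7.88-fold and 6.88-fold. The water channel Aqp1 and the membrane carbonic anhydrase Car4, both abundant in capillaries, fell 8.31-fold and 11.2-fold, with Aqp1 at 18.9, 31.6 and 35.5 FPKM on the high-fat diet and 230.1, 265 and 220.4 on the normal diet. The sphingosine-1-phosphate receptor S1pr1 fell 7.94-fold. Summed endothelial markers were lower in the same libraries, at 58.6 to 114.0 FPKM against 616.6 to 674.4, with 11 of 12 markers tested lower and H0 lowest. Their part in the junction, Notch, guidance, vasoactive and SOX results was not tested.

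**Figure D4:**
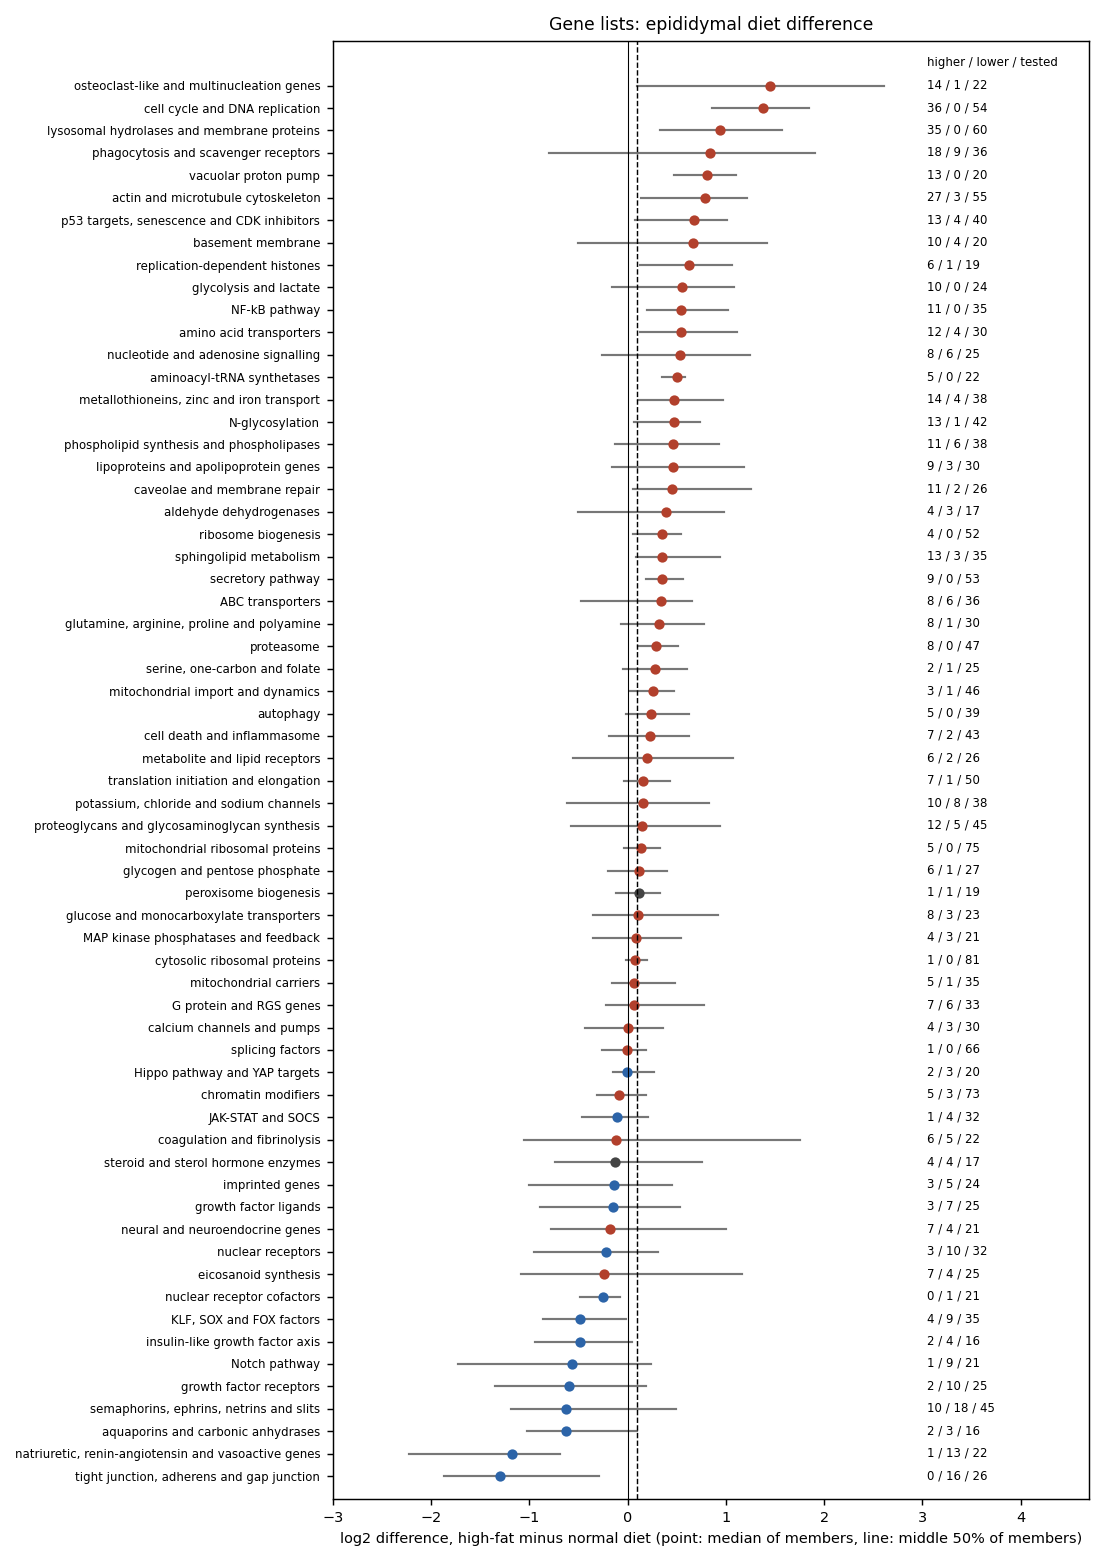
Median log2 difference of the members of each gene list (points; red where more members rose than fell, blue where more fell, dark grey where equal), the middle 50% of members (lines) and, at right, the numbers higher, lower and tested. Lists run from the junction genes, with 16 of 26 lower, to the osteoclast-like genes, with 14 of 22 higher; the dashed line is the median of all genes, 0.10, and 1 list is drawn per row.

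Genes of glycolysis rose. Of 24 genes of glycolysis and lactate metabolism 10 rose and none fell (median 0.56), and 6 rose without H1 or N0; 1 fell after TMM scaling, 2 with the replicate block or quantile normalization and 4 with equal nuclear coding sums. Hk3, a hexokinase of white blood cells, measured 22.6, 20.6 and 14.8 FPKM on the high-fat diet and 1.49, 2.43 and 1.26 on the normal diet, and Tpi1, triose phosphate isomerase, 312, 438 and 424 FPKM on the high-fat diet and 89.98, 147 and 152 on the normal diet. Gys2, known as the liver form of glycogen synthase and also made by adipocytes, rose 20.1-fold (13.9, 18.5 and 19.7 against 0.902, 1.34 and 0.352 FPKM; adjusted p = 8.6e-06), and Pgd of the pentose phosphate pathway rose 2.7-fold. Of 23 glucose and monocarboxylate transporters 8 rose and 3 fell, with a median of 0.10 that turned negative with equal nuclear coding sums. Slc2a10, a glucose transporter, rose 3.08-fold (6.05, 4.13 and 5.19 against 1.41, 2.39 and 1.19 FPKM), and Slc2a3, a high-affinity glucose transporter, fell (0.985, 1.58 and 2.25 against 8.36, 6.25 and 12.9 FPKM).

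Solute carriers move nutrients and ions across membranes. Of 208 such genes 55 rose and 14 fell, or 26.4% and 6.73%, against 14.1% and 8.59% of all genes. Amino acid transporters gave 12 higher and 4 lower of 30 (40% and 13.3%). Slc36a2, a proton-coupled transporter of small amino acids used as a marker of brown and beige fat, measured 127, 120.1 and 127 FPKM on the high-fat diet and 34.1, 41.5 and 46.6 on the normal diet (adjusted p = 0.00062). Slc43a1, a carrier of large neutral amino acids, went the other way (3.43, 2.34 and 4.79 against 12.2, 16.7 and 26.05 FPKM). Mitochondrial carriers had 5 higher and 1 lower of 35, or 17.1% called against 22.7% of all genes. Their median of 0.07 turned negative under TMM, quantile and nuclear coding scaling; 3 rose without H2 or N0, none fell without H1, and 2, 3, 4 and 2 fell after TMM, quantile and nuclear coding scaling and with the replicate block. Slc25a10, which exchanges dicarboxylates, rose 2.99-fold, and Slc25a13, the aspartate-glutamate carrier citrin, measured 6.14, 5.62 and 4.02 against 0.406, 0.297 and 0.644 FPKM.

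Of 38 genes of metallothioneins and of zinc and iron transport, 14 rose and 4 fell (36.8% and 10.5%, against 14.1% and 8.59% of all genes), with a median of 0.47. The number that rose was 8 without H0 or H1, and 9 without N0 or after quantile normalization. Tfr2, an iron sensor best known from the liver, measured 13.1, 8.35 and 7.92 FPKM on the high-fat diet and 0.329, 0.563 and 0.423 on the normal diet, and Slc11a1, the metal exporter of phagosomes, rose 5.61-fold. Ceruloplasmin, a ferroxidase encoded by Cp, fell (17.97, 18.7 and 20.9 against 58.4, 63.4 and 73.4 FPKM). Of 25 genes of eicosanoid synthesis, the source of prostaglandins and thromboxane, 7 rose and 4 fell (28% and 16%, against 14.1% and 8.59% of all genes), with a median of -0.24; 2 of the 25 were detected on the normal diet only, and of the other 23 genes 7 rose and 2 fell. Hpgds and Tbxas1, which make prostaglandin D2 and thromboxane A2, rose 8.46-fold and 5.43-fold, whereas the upstream cyclooxygenase Ptgs1 fell (1.1, 1.54 and 2.12 against 4.84, 4.38 and 6.84 FPKM). The prostaglandin receptor Ptger3, through which adipocytes are held back from lipolysis, rose (55.5, 46.5 and 59.1 against 11.9, 14.2 and 20.2 FPKM), and the prostaglandin-degrading enzyme Hpgd fell (22.9, 25.8 and 19.05 against 54.4, 41.7 and 46.8 FPKM).

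Glutathione S-transferases, which detoxify reactive compounds, fell more often than they rose. Of 21 glutathione S-transferases 6 fell and none rose (median -0.34; 1 rose after TMM scaling or with the replicate block). Gstt2 measured 5.77, 7 and 8.03 FPKM on the high-fat diet and 28.1, 36.04 and 46.3 on the normal diet and Gstt1 fell 4.39-fold. Hsd11b1, the enzyme that regenerates active glucocorticoid in adipose tissue, measured 22.2, 23.6 and 23.6 FPKM on the high-fat diet and 93.2, 88.6 and 119.7 on the normal diet (log2 difference -2.09 ± 0.26, adjusted p = 0.00013). Its 3 high-fat libraries lay within 22.2 to 23.6 FPKM.

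Of 30 genes of lipoproteins and their uptake 9 rose and 3 fell (30% and 10%, against 14.1% and 8.59% of all genes), with a median of 0.46. Sorl1, a sorting receptor, rose 4.84-fold (13.2, 12.04 and 16.3 against 2.79, 2.89 and 2.91 FPKM). Apod, a lipocalin carried on high-density lipoprotein, fell (0.601, 0.998 and 0.561 against 6.29, 14.01 and 10.99 FPKM). Apoc4 is listed at 0 in all 3 normal-diet libraries and at 1.99, 5.43 and 3.24 FPKM on the high-fat diet, so it was detected on that diet only. Left without genes detected on one diet only, the list had 28 genes, of which 8 rose and 3 fell. In coagulation and fibrinolysis, 6 of 22 rose and 5 fell (3 without any 1 of the high-fat libraries or without N1): besides F7, Tfpi2, an inhibitor of serine proteases, rose 8.12-fold, and Serpinf1, the secreted factor PEDF of adipocytes, rose 4.51-fold, while Plat, tissue plasminogen activator, fell 6.54-fold.

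Genes of the extracellular matrix changed in both directions. Collagen genes gave 12 higher and 5 lower of 23, with a median of 1.41, and 10 of 20 basement membrane genes rose and 4 fell (2 without H2, N0 or N1); 2 of the latter list were detected on the normal diet only. Col15a1, a collagen next to basement membranes, measured 379, 297 and 437 FPKM on the high-fat diet and 51.4, 64.4 and 66.6 on the normal diet (adjusted p = 1.7e-05), and Col18a1, the precursor of endostatin, rose 4.37-fold. Lamb3, a laminin chain typical of epithelia, rose 7.42-fold, and Col12a1, which decorates collagen fibrils, 16.9-fold. Cross-linking enzymes rose too: Lox (41.6, 38.2 and 29.6 against 12.3, 13.1 and 9.66 FPKM) and Plod3 (72.4, 80.6 and 106 against 22.5, 41.3 and 40.6 FPKM) were among 3 of 10 lysyl oxidases and collagen hydroxylases that rose, with none lower. Gpc1, a heparan sulfate proteoglycan of the cell surface, rose 7.71-fold, and Cd44, the hyaluronan receptor, rose 6.98-fold. Ncan, a proteoglycan known from the brain, was detected on the high-fat diet only (7.21, 7.54 and 6.92 against 0.23, 0.365 and 0.363 FPKM). Ogn, a small leucine-rich proteoglycan of fibroblasts, fell (5.89, 7.22 and 5.24 against 63.5, 52.3 and 36.1 FPKM). Fibroblast marker sums were lower on the high-fat diet in the same libraries (443.5 to 613.5 against 911.9 to 1567 FPKM), and their part in the matrix results was not tested.

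Of 25 growth factor ligands 3 rose and 7 fell (12% and 28%, against 14.1% and 8.59% of all genes), with a median of -0.15. With the replicate block 5 rose, and 4 fell without H0, H1, N1 or N2. Detected on the normal diet only were 3 of the 25, and of the other 22 genes 3 rose and 4 fell. Fgf13, an intracellular member of the FGF family that regulates sodium channels, measured 45.9, 57.6 and 63.8 FPKM on the high-fat diet and 2.56, 5.13 and 2.67 on the normal diet (adjusted p = 2.5e-06), and Fgf1, which adipocytes make on feeding, rose 3.53-fold. Pdgfb, the ligand that recruits pericytes, fell (10.3, 9.61 and 6.82 against 25.5, 34.7 and 21.8 FPKM). In the insulin-like growth factor axis 2 of 16 genes rose and 4 fell (12.5% and 25%, against 14.1% and 8.59% of all genes). Igf2 fell (0.0764, 0.295 and 0.0834 against 3.23, 2.11 and 1.83 FPKM) but was detected on the normal diet only, and of the other 15 genes 2 rose and 3 fell. Igfbp7 fell 2.84-fold, and Igfals, the acid-labile subunit that stabilizes circulating complexes, rose (76.4, 51.6 and 81.7 against 16.3, 15.6 and 14.8 FPKM). Socs2 and Cish, feedback inhibitors that growth hormone induces through STAT5, fell 9.03-fold and 6.35-fold, with Cish at 2.98, 1.91 and 1.51 against 10.7, 13.6 and 16.3 FPKM. Of 25 genes of nucleotide and adenosine signalling 8 rose and 6 fell (median 0.54; 4 rose without H1 or N2 and 5 without H0, H2 or N0). Adora1, the adenosine receptor that restrains lipolysis, rose (31.5, 30.3 and 36.7 against 10.2, 15.4 and 10.97 FPKM, adjusted p = 0.014), a call lost without H2 or N0 (adjusted p = 0.0528 and 0.0544). The receptor Adora2a fell (1.59, 1.78 and 1.76 against 11.4, 13.3 and 11.2 FPKM), and so did Cd38 (1.82, 2.03 and 1.74 against 18.1, 13.96 and 9.43 FPKM) and Nt5e (0.102, 0.0733 and 0.289 against 2.34, 2.87 and 1.81 FPKM), the ectoenzymes that act on extracellular nucleotides. In this list of 25, 1 gene was detected on the high-fat diet only and 1, Nt5e, on the normal diet only. Of the other 23 genes 7 rose and 5 fell.

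Transcription factors fell more often than they rose in several families. Of 32 nuclear receptors 10 fell and 3 rose; 6 fell without H0, and 1 rose without any 1 library other than N1. Nr2f2, also known as COUP-TFII, fell 3.53-fold (3.13, 1.94 and 3.17 against 11.2, 9.44 and 8.42 FPKM). Of 23 HOX genes, which mark position along the body axis, 11 fell and none rose (median -0.80; 2 of the 23 were detected on the normal diet only), for instance Hoxd9 (0.581, 0.282 and 0.371 against 2.23, 2.56 and 2.36 FPKM). Among 315 zinc finger genes only 21 were called (6.67%, against 22.7% of all genes), 18 lower and 3 higher. The share lower, 5.71%, was below the 8.59% of all genes, and the share higher, 0.952%, was below 14.1%. The lower count ranged from 4 to 20 when single libraries were left out (4, 6, 7, 9 and 5 without H0, H1, H2, N1 and N2). It was 37 with equal nuclear coding sums. The higher count was 1 without H0 or N0 and 5 without N1 or with the replicate block. The clearest was Zfp366 (0.395, 0.751 and 0.764 against 5.87, 7.1 and 6.3 FPKM; adjusted p = 2.5e-05).

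Interferon-inducible GTPases defend cells against microbes. Of 33 guanylate-binding and immunity-related GTPases and related genes, 14 fell and 1 rose (median -0.90; 5 rose and 16 fell with the replicate block, and 3 rose without N1 or after quantile normalization). Gbp4 measured 0.46, 1.11 and 0.816 FPKM on the high-fat diet and 9.28, 8.55 and 7.87 on the normal diet and Gbp9 1.13, 2.46 and 2.64 FPKM on the high-fat diet and 12.4, 11.6 and 15.5 on the normal diet, both far lower on the high-fat diet; the family has close copies, so reads may be shared. The single member that rose was Ifi30, a lysosomal thiol reductase of antigen-presenting cells (132, 125 and 93.5 against 18.6, 30.2 and 17.999 FPKM), which is no GTPase and entered the family by its symbol.

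Machinery common to all cells had few calls, or counts of calls that changed with the scaling or the libraries used. Few calls do not show that these genes changed little. Of 81 cytosolic ribosomal protein genes 1 rose and none fell (2 rose with the replicate block, none without H1), with a median of 0.08 that turned negative under quantile and nuclear coding scaling. In the inguinal libraries 77 of the same 81 genes fell, with a median of -1.48. None of 37 NADH dehydrogenase subunits was called in either direction (median -0.09; 5 fell after quantile normalization and 3 with equal nuclear coding sums). Splicing factors gave 1 higher and none lower of 66, but 1, 5 and 4 lower after TMM, quantile and nuclear coding scaling and 1 without H1 or N0. Proteasome genes gave 8 higher of 47 (17.0%, near the 14.1% of all genes). That count fell to 1 without H1, H2 or N0 or after quantile normalization, to 2 without H0, to 5 without N2, and rose to 13 with the replicate block. For the secretory pathway the count was 9 of 53 (17.0%, also near that share), 5 without any 1 of the high-fat libraries or N0 or after quantile normalization, and 16 with the block.

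A gene without a call is not thereby a gene without a change. The 95% interval of the log2 difference lay within 0.5 of 0 for 498 genes, or 4.76% of the 10467 genes without a call. It reached a 2-fold change in one direction or the other for 4481 of the genes without a call (42.8%). Of the machinery lists above, it lay within 0.5 of 0 for 0 of 81 cytosolic ribosomal protein genes and 1 of 37 NADH dehydrogenase subunits. The same held for 8 of 66 splicing factors, 2 of 47 proteasome genes and 2 of 53 secretory pathway genes. For the other members without a call, a change beyond that bound was not excluded. The genes held within the bound at the highest levels were Ehd2, which encodes an ATPase of caveolae (239, 222 and 276 FPKM on the high-fat diet and 225, 249.5 and 252 on the normal diet; interval -0.37 to 0.40), Hnrnpk, an RNA-binding protein (215 ± 32.6 against 225 ± 40.7 FPKM; interval -0.49 to 0.36), Cd81, a tetraspanin (211 ± 26.9 against 196 ± 17.8 FPKM; interval -0.27 to 0.48), and Rhoa (191 ± 21.2 against 179 ± 5.55 FPKM; interval -0.26 to 0.45). Means are given ± SD over 3 libraries, high-fat diet first. The respiratory chain subunit Uqcr10 and the G protein subunit Gnb2 were also within the bound (237 ± 19.8 against 243 ± 34.1 FPKM and 168 ± 5.36 against 179 ± 34.8 FPKM), but both were called after quantile normalization (adjusted p = 0.0458 and 0.0199).

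Some genes were detected on one diet only, at 0.5 FPKM or more in its 3 libraries and below that in the 3 of the other. There were 224 on the high-fat diet, 158 of them called, and 255 on the normal diet, 166 called; such genes entered the table through that diet alone, so their difference is part of the definition. Pvalb, which encodes the calcium buffer parvalbumin of muscle and neurons, measured 7.3, 8.36 and 7.12 FPKM on the high-fat diet and 0.0443, 0.383 and 0 on the normal diet, and Dhrs9, a retinol dehydrogenase, 12.1, 12.9 and 8.15 FPKM on the high-fat diet and 0.223, 0.389 and 0 on the normal diet. Cmtm8, a membrane protein of the chemokine-like factor family, measured 0.143, 0.218 and 0.216 FPKM on the high-fat diet and 3.97, 5.46 and 3.48 on the normal diet. Npy, the gene of neuropeptide Y, is listed at 0 in every normal-diet library and measured 4.13, 4.39 and 2.64 FPKM on the high-fat diet.

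Gene class and position described the calls further. Of 12262 protein-coding genes 1830 rose and 1089 fell (14.9% and 8.88%). Of 392 long noncoding RNA genes 15 rose and 35 fell (3.83% and 8.93%), with a median of -0.19. The shares that fell were thus alike, and the share that rose was smaller for noncoding genes. Their median SE was larger (0.388 against 0.270). None of the 14 mitochondrial genes was called, with a median of -1.34; their share of coding FPKM was 40.1% to 66.5% on the normal diet and 26.8% to 36.8% on the high-fat diet. By chromosome, the share called ran from 19.9% on chromosome 12 to 28.1% on chromosome 6 among the autosomes and X, and on chromosome 19 there were 91 higher and 27 lower genes of 456.

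Called genes of one direction sometimes lay side by side. Of 12984 pairs of neighbours among the placed genes, 378 rose together, 156 fell together and 250 moved in opposite directions. With 14.1% of all genes higher and 8.59% lower, some pairs arise among unrelated neighbours, and how many was not computed. Runs of at least 4 consecutive tested genes numbered 17 for genes that rose and 5 for genes that fell. The longest, on chromosome 7 from 98886742 to 99461875 (GRCm38), held Uvrag, Dgat2, Mogat2, Map6, Serpinh1 and Gdpd5; Dgat2 and Mogat2 encode sister enzymes of glyceride synthesis, and Mogat2 measured 15.3, 10.7 and 14.8 against 0.754, 1.52 and 2.75 FPKM. On chromosome 6 from 33249090 to 34396949 a run of 5 held Exoc4, Slc35b4 and the aldo-keto reductases Akr1b3, Akr1b8 and Akr1b10, with Akr1b8 at 30.5, 34.8 and 23.8 against 4.65, 7.82 and 8.03 FPKM; the reductases have similar sequences. A run of 5 on the same chromosome, from 124760053 to 124833701, held the glycolytic genes Eno2 and Tpi1 with Spsb2, Usp5 and Cdca3. The GTPases of immune cells Gimap4, Gimap6, Gimap1 and Gimap5 formed a run of 4 that fell on chromosome 6, from 48684578 to 48754200, with Gimap1 at 0.472, 1.4 and 1.03 against 7.17, 7.37 and 7.1 FPKM; the family has close copies. Of the named members of runs, Slc35b4, Gdpd5, Eno2 and Usp5 lost their calls without 3 or more of the 6 libraries, each in turn, which breaks the runs they stand in.

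Promoter composition differed between the called genes and the rest. Windows were matched for 9837 of the 12262 tested protein-coding genes (80.2%). Among the 2775 genes with a CpG-poor window, where CpG is at less than 0.6 of the count that base composition gives, 32.5% were called (500 higher, 403 lower, the latter 14.5%). Among the 7062 with a CpG-rich window, the type common at widely expressed genes, 19.2% were called (943 higher, 415 lower, the latter 5.88%). CpG-rich windows made up 50.7% of the genes that fell, 65.4% of those that rose and 75.3% of the rest, and 86.7% of the division genes but 19.4% of 31 phagocytosis and scavenger receptors. Several motifs were searched. The AP-1 motif TGANTCA was in 6.93% of the windows of genes that rose, 7.09% of those that fell, 4.30% of the rest and 7.93% of all windows in the table. The TATA box TATAAA showed the same order, at 8.46%, 10.3%, 6.35% and 14.2%. The NRF1 motif GCGCATGCG was rarer in called genes than in the rest, at 2.56%, 0.978%, 4.32% and 1.81%.

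The inguinal depot shared part of the response. With the same fit 2672 of the 13532 genes (19.7%) were called in the inguinal libraries, and 1029 genes were called in the same direction in both depots, which is 33.6% of the epididymal and 38.5% of the inguinal calls. Another 90 genes were called in opposite directions. Across genes the log2 differences of the depots correlated at Pearson's r = 0.42 and Spearman's rho = 0.40, a description over 13532 genes, which are not independent replicates. A test of the difference itself, the diet-by-depot interaction, called 1085 genes (8.02%), 707 with a higher and 378 with a lower diet effect in the epididymal depot. It included 736 (24.0%) of the epididymal calls. Upwards, 301, 301, 384 and 430 genes passed it without H0, H1, N0 and N2, and downwards 188 and 225 without H0 and H1.

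Genes called in the same direction in both depots include Kcnj14, with log2 differences of 4.44 ± 0.30 in epididymal and 4.25 ± 0.30 in inguinal libraries, and Col15a1, with 2.59 ± 0.23 and 2.71 ± 0.23. Ret rose in both, by 2.16 ± 0.21 and 3.44 ± 0.21, and more in the inguinal libraries (interaction adjusted p = 0.025). Capg changed by 3.33 ± 0.22 in the epididymal and 0.18 ± 0.22 in the inguinal libraries (interaction adjusted p = 0.00088), and Notch4 by -2.89 ± 0.19 and 0.08 ± 0.19 (adjusted p = 0.0006). The prostaglandin-degrading Hpgd fell in one depot and rose in the other, by -1.06 ± 0.20 and 1.37 ± 0.20.

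The largest interactions among epididymal calls went in both directions. Spp1, the gene of osteopontin, measured 32.2, 27.9 and 11.8 FPKM on the high-fat diet and 2.09, 1.18 and 1.91 on the normal diet in the epididymal libraries and had an inguinal log2 difference of -2.73 ± 0.40 (interaction 6.10 ± 0.57, adjusted p = 0.0006). Il7r, the interleukin-7 receptor, measured 22.9, 25.8 and 17.7 FPKM on the high-fat diet and 0.762, 1.61 and 1.4 on the normal diet, against an inguinal difference of -1.63 ± 0.59. Rgs5, a regulator of G protein signals that marks pericytes, measured 10.1, 14.3 and 12.3 FPKM on the high-fat diet and 92.99, 89.96 and 81.6 on the normal diet, and it rose in the inguinal libraries by 1.13 ± 0.26 (interaction -3.94 ± 0.37, adjusted p = 0.0006). Kcnj8, a channel subunit of the same cells, measured 0.785, 1.66 and 1.42 against 7.78, 12.3 and 11.6 FPKM and gave an interaction of -3.37 ± 0.58. Aspn, a small proteoglycan gene, gave -3.36 ± 0.60. The phosphatase gene Ptpn6 showed a wide interaction too (4.72 ± 0.61, adjusted p = 0.0021), while its epididymal call (17.2, 15.9 and 11.8 against 4.52, 7.26 and 3.86 FPKM, adjusted p = 0.027) was lost under 7 alternatives (adjusted p = 0.0942, 0.0828, 0.0809 and 0.0929 without H0, H1, N0 and N2, 0.0669 without a filter on low values, 0.0632 after quantile normalization and 0.0702 with equal nuclear coding sums). Its inguinal difference was -3.26 ± 0.43. Lymphocyte markers moved on the inguinal side: of 6 T and NK cell markers tested 5 fell there (median -3.77) and of 6 B and plasma cell markers 4 fell and 1 rose (median -3.94). The 16 T and NK cell markers summed to 7.97 to 16.98 FPKM on the high-fat diet and 49.9 to 790.3 on the normal diet in the inguinal libraries, and to 24.1 to 35.7 against 9.9997 to 16.8 in the epididymal ones. Il7r is 1 of these 16 and made up most of the high-fat epididymal sums. In the epididymal libraries 13 of the 16 were under 0.5 FPKM in each high-fat library, against 6 to 9 on the normal diet. Of the 6 tested there 1 rose and 1 fell (median -0.68), and 3 were detected on the normal diet only. The 10 B and plasma cell markers summed to 428.2 to 613.96 against 198.3 to 966.6 FPKM in the inguinal and 467.5 to 654.1 against 147.4 to 175.2 in the epididymal libraries. Of these 10 markers, 6 were under 0.5 FPKM in each epididymal high-fat library, against 2 to 4 on the normal diet. Of the 6 tested there 2 rose and 1 fell (median -0.84), and 2 were detected on the normal diet only. The part of lymphocyte markers in these interactions was not tested. The smooth muscle and vessel genes Rgs5 and Kcnj8 are among 10 pericyte markers tested, of which 5 fell and 1, Cspg4 (23.7, 23.3 and 21.1 against 3.7, 5.3 and 4.99 FPKM), rose in the epididymal libraries.

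**Figure D5:**
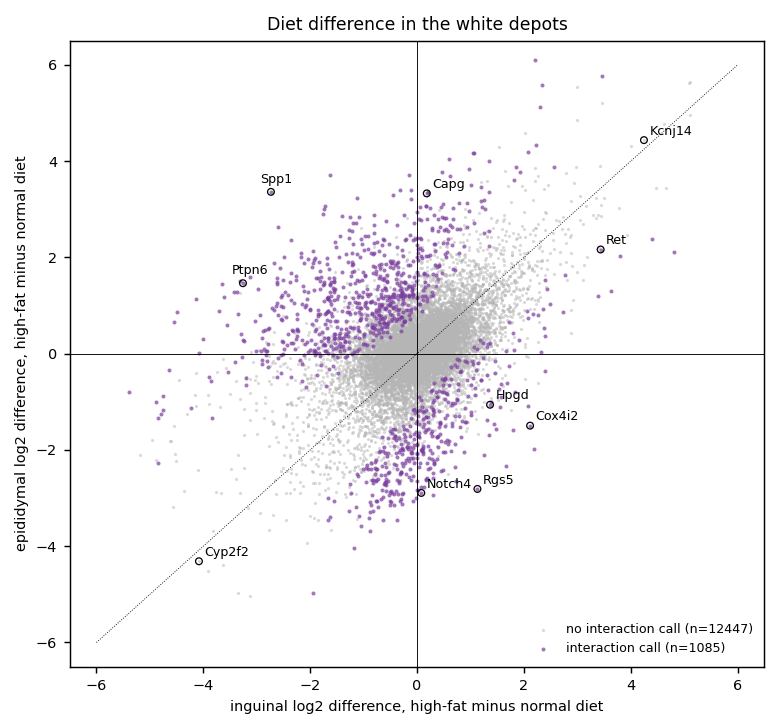
Log2 difference between the diets in epididymal (y axis) against inguinal (x axis) libraries for 13532 genes, purple where the interaction was called (1085 genes) and grey elsewhere; the dotted line marks equal differences. Spp1 and Ptpn6 lie at the upper left, higher with the high-fat diet in epididymal and lower in inguinal libraries, Rgs5 and Cox4i2 at the lower right, and Kcnj14 and Cyp2f2 near the line.

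Pools of one diet also differed among themselves. Cdh13, a cadherin that binds adiponectin, measured 1.25, 4.98 and 4.73 FPKM on the high-fat diet and 26.98, 40.5 and 25.5 on the normal diet, with H0 well below the other high-fat libraries. The retinol-binding protein gene Rbp7 followed the same order (3.28, 12.7 and 12.5 against 93.8, 247 and 123.2 FPKM), as did the endothelial sum. Eif4ebp3, an inhibitor of translation initiation, was listed at 0 in H1 and measured 0.535, 0 and 1.24 against 7.88, 12.7 and 8.62 FPKM in all. These 3 genes were picked among called genes for their wide spread on the high-fat diet, so being called was part of the choice. Their adjusted p values (limma) were 0.00048, 0.00016 and 0.0034 in order. Those values rest on a spread shared over all 12 white libraries, not on the spread among the 3 high-fat libraries.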

How the data were processed

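The FPKM values are those the authors deposited, 1 file per library with a gene identifier and its FPKM; per the submitters' processing notes, reads were aligned to mm10 with TopHat2 2.0.9 and FPKM came from Cuffdiff 2.1.1. Annotation, strand setting and depth per library are not given in the sources used here, so no counting intervals are given. Identifiers were matched to symbols for 36638 of 38553 genes; classes, positions and promoters come from RefSeq tables (GRCm38.p6).

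Genes with at least 0.5 FPKM in at least 3 of the 6 epididymal libraries were kept. limma 3.58.1 (R 4.3.3) was fitted to log2(FPKM + 0.5) with 4 group means over the 12 white adipocyte libraries, with an intensity trend and Benjamini-Hochberg adjustment over all 13532 genes. Tests were two-sided and a call is an adjusted p under 0.05. Values ± SE are log2 differences; folds are ratios of mean FPKM. The labels describe 3 biological pools per group. The spread behind the p-values is that between pools, shared over all 4 groups, inguinal ones included (8 residual degrees of freedom). Array weights, lower for libraries that vary more, were lowest for inguinal normal-diet replicates 1 and 2 (0.244 and 0.268). Fitted on the 6 epididymal libraries alone, 2344 genes were higher and 1448 lower. The procedure was tested on simulated data. Summaries used pandas 2.3.3 and numpy 2.4.6, and figures matplotlib 3.10.9. Brown adipocyte libraries were not used here.

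Same-numbered libraries of the diets deviated together (correlations of deviations from the group means 0.2143, 0.113 and 0.1983 over numbers 0, 1 and 2, against -0.2134 to 0.00819 for other pairs). Deviations cancel out within a group, so these correlations depend on each other, and 3 libraries per diet cannot settle whether they are paired. No label explains a number's meaning, and the main fit does not pair the libraries. The number as a block is an alternative fit.

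The gene lists and named genes were chosen with earlier results of these data known. Named genes follow a rule: ranks 11 to 20 by log2 difference each way among called genes of at least 2 FPKM without overlap; the 8 largest changes in FPKM each way; up to 3 called genes each way per list and 2 per symbol family with a mean of at least 1 FPKM; up to 6 per diet of genes detected on 1 diet; members of the 3 longest runs each way; the 8 highest genes held within the bound; up to 6 interactions each way; and the 6 called genes with the widest spread among the high-fat libraries. Some genes that the rule names are not reported here. The alternatives tried changed the pseudocount (0.1 or 1), the filter (none, or 2 FPKM in place of 0.5) and the scaling (TMM, quantile, nuclear coding sum), or used array weights, the replicate block, the epididymal libraries alone or a 2-fold minimum (limma treat), or left out each library in turn.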

Additional observations from a re-analysis of the deposited data

Results flagged for a closer look

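Several genes named above responded to the high-fat diet by a different amount in the epididymal and the inguinal depot, as found by the diet-by-depot interaction (limma, Benjamini-Hochberg adjusted p under 0.05; 1085 of 13532 genes, 8.02%). The values below are the epididymal minus the inguinal log2 difference between the diets, and no explanation for them was tested.

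Values were positive for 34 genes. Among genes of macrophages and other immune cells they were 6.10 for Spp1, 5.34 for Il7r, 4.72 for Ptpn6, 4.09 for Lcp1, 3.46 for Fcgr4, 3.33 for Sirpb1c, 3.15 for Capg and 3.11 for Slc37a2. Smaller ones of the same kind were 2.67 for Adam8, 2.07 for Clec12a, 2.01 for Lgals3, 1.96 for Hk3, 1.73 for Sirpa, 1.66 for Hpgds, 2.39 for Cd44 and 1.97 for Tnfaip3. Lysosomal genes gave 3.03 for Ifi30, 2.99 for Ctss, 2.90 for Ctsk, 1.96 for Gla and 1.93 for Cd68, and the ferritin gene Ftl1 gave 1.55. Division genes gave 3.51 for Birc5 and 2.30 for Ccnb2. Metabolic and transport genes gave 3.46 for Dhrs9, 2.05 for Slc25a13, 1.84 for Gys2, 1.42 for Akr1b3 and 2.95 for Sorl1. Secreted and signalling genes gave 2.12 for Gdf15, 2.11 for F7, 2.60 for Npy, 1.32 for Fgf13 and 2.58 for Dusp5.

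Values were negative for 37 genes. Vessel genes gave -3.94 for Rgs5, -3.37 for Kcnj8, -3.61 for Cox4i2, -2.97 for Notch4, -2.97 for Ednrb, -2.98 for Cdh13, -2.83 for Robo4, -2.63 for Cdh5 and -2.60 for Dll4. Others were -2.85 for Rbp7, -2.83 for Sox7, -2.58 for Aqp1, -2.52 for Adgrl4, -2.52 for Cyyr1, -2.44 for Sox18, -2.36 for Sema6a, -2.34 for Tie1, -2.30 for Jam2 and -2.28 for Sox17. Smaller ones were -2.21 for Flt1, -2.24 for Zfp366, -1.92 for Jag2, -1.79 for Id1, -1.78 for Car4, -1.66 for S1pr1, -1.37 for Adora2a and -1.15 for Pdgfb. Matrix, signalling and enzyme genes gave -3.36 for Aspn, -2.91 for Cmtm8, -2.55 for Spry1, -2.53 for Myl9, -2.43 for Hpgd, -2.19 for Gstt1, -1.37 for Gstt2 and -1.08 for Cp. Ret and Npr3 rose in the epididymal libraries and had negative values, -1.27 and -1.09, since their inguinal log2 differences were larger, 3.44 and 2.43.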

How the results depend on the processing

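Of the 166 called genes named in the report, 156 kept their call and direction under every alternative other than the 2-fold minimum, and none reversed; the calls lost are Ftl1, Pck1, Retn, Ptpn6, Cox4i2, Eno2, Gdpd5, Slc35b4, Usp5 and Adora1. The fit with the replicate number as a block called 2267 genes higher and 1326 lower, with 3026 calls in common with the unblocked fit, 39 lost and 567 gained, and 785 and 462 interactions; it changed no call of a named gene, and counts of the described lists that it moved by over 1.5 times are given beside their results. Without 1 of the 6 libraries in turn, 1241 to 1701 genes were higher and 741 to 1071 lower, with 301 to 605 interactions higher and 188 to 307 lower. Against a 2-fold minimum, 225 genes were higher and 220 lower, 98 of the named genes were called, and 27 lists, not 53, had more members higher than lower. Array weights gave 2241 lower genes and 1376 and 1425 interactions. Interactions lower numbered 679 after quantile normalization and 649 with equal nuclear coding sums, and interactions higher 423 without a filter on low values; the cause of these shifts was not tested. Read depth is unknown, and 3 pools per diet limit the precision.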
